A study of Mus musculus with 4 samples.

Results

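Hyaluronan is a long unsulfated sugar polymer of the extracellular matrix (ECM). It is spun out at the plasma membrane by the hyaluronan synthases, cut by hyaluronidases at the cell surface and in lysosomes, bound by cell-surface receptors such as CD44, LYVE1 and stabilin-2, and joined to other matrix molecules by secreted binding proteins. In the lung it fills the interstitium around capillaries and lymphatic vessels, and matrix rich in hyaluronan is known from growing and injured tissue. The 10 genes described here were chosen by their symbols to cover these steps. They are the synthases Has1, Has2 and Has3, the hyaluronidases Hyal1 and Hyal2, the receptors Cd44, Lyve1 and Stab2, and the binding proteins Tnfaip6 and Hapln1. All 10 were found among the 24063 gene symbols of the count tables.

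RNA was measured in the CD31-selected endothelial cell (EC) fraction of lungs from C57BL6 mice, 8 week old, either 7 days after removal of the left lung (pneumonectomy, PNX) or after a sham operation that opened the chest without PNX. Each group had 2 libraries, and each library pooled the cells of 2 mice. The p-values therefore measure at most the spread between pools, and not that between mice. This spread lay near counting noise. The mean chi-square per gene was 1.76 between sham and 1.53 between post-PNX libraries, where counting noise alone gives 1. The total count with 1 transcript per gene lay between 41367438 and 50952879 per library, and 3 counts, the smallest level taken as detected, came to between 0.0589 and 0.0725 CPM, a count scaled to the library total. This floor covers counting error only.

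The mice were labelled male, but none of the 44 genes listed on chromosome Y received a count in any library, 0 in all, while Xist received between 29890 and 36875 counts, in both groups alike. The endothelial markers Pecam1, Cdh5 and Ptprb were abundant, with mean FPKM values in sham ECs of 374, 376 and 128. FPKM divides a count by transcript length and by the library's total, here the total over all transcripts. The fraction also carried RNA of other cells. The surfactant gene Sftpc of alveolar epithelium had a mean FPKM of 2893 in sham and 1889 in post-PNX libraries, and Scgb1a1 of airway secretory cells had 4231 and 2063. In bulk RNA of this kind, fewer cells of a type and less RNA per cell cannot be told apart.

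The hyaluronan genes moved apart after PNX. Transcripts of the synthases Has1 and Has2 and of the binding proteins Tnfaip6 and Hapln1 rose, with log2FC values between 1.75 and 3.91, while the most abundant gene of the group, the receptor Lyve1, fell to 0.452 of its sham level. Cd44 and Stab2 rose by less than the fold threshold, and Has3, Hyal1 and Hyal2 fell by less than it, although Hyal1 and Hyal2 were at 0.07 and 0.04 (log2FC) when the libraries were scaled to endothelial marker genes. Change is given as log2FC, the log2 ratio of post-PNX to sham ECs, with its standard error (SE). QL adjusted p stands for the Benjamini-Hochberg adjusted p that edgeR's quasi-likelihood F test gave over 16208 genes. Both thresholds, an absolute log2FC above 1 together with a QL adjusted p below 0.01, were passed by 4 genes of the 10 that were higher and by 1 that was lower, where 7.56% of all genes tested passed in either direction, 5.90% higher and 1.66% lower. When the fold was left aside, all 10 had a QL adjusted p below 0.01, 6 of them higher and 4 lower, where 57.1% of all genes tested did, 29.3% higher and 27.8% lower. With the scaling to endothelial marker genes 7 of the 10 passed 0.01, 6 higher and 1 lower. In DESeq2's Wald test, and with counts summed over transcripts, 9 passed it. The median log2FC was 0.40 over the 10 genes and 0.00115 over all genes tested.

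**Figure D1:**
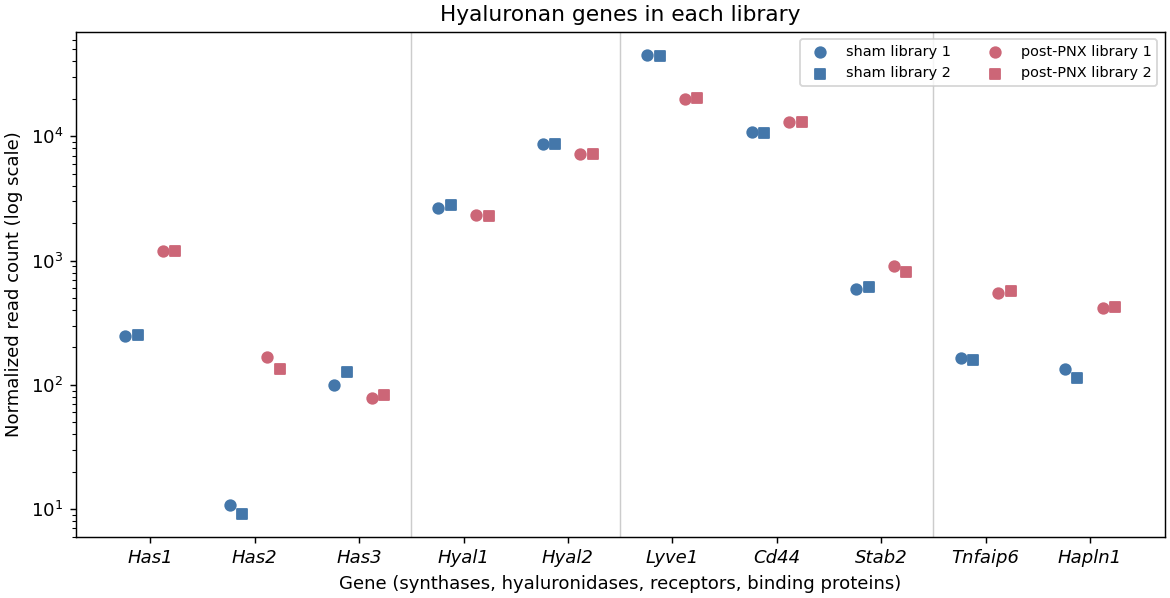
Normalized read count of each hyaluronan gene (log axis) in the 2 sham and 2 post-PNX libraries, 1 point per library, with vertical lines between synthases, hyaluronidases, receptors and binding proteins. Has2 lay between 9.17 and 10.9 in sham and between 135 and 169 in post-PNX libraries, and Lyve1 was lower in both post-PNX libraries than in both sham libraries.

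Has1, whose enzyme is one of the 3 that polymerize hyaluronan from UDP-sugars at the plasma membrane, lies on chromosome 17 from 17833691 to 17855589 (mm10). In sham ECs it reached 246 and 252 normalized counts, and in post-PNX ECs 1194 and 1199. The libraries of each group almost coincided and the groups were far apart. The log2FC was 2.27 (SE 0.066, QL adjusted p = 1.9e-38). The Has1 locus overlaps Spaca6, a gene of sperm, which had 249 and 250 raw counts in sham and 250 and 226 in post-PNX libraries. It also overlaps Gm36907, a non-coding RNA that was not among the gene symbols counted. The part of reads from overlapping genes in the level of Has1 was not tested.

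Has2, the synthase that is required for heart development in the mouse embryo, lies on chromosome 15 from 56665627 to 56694546. It had 10.9 and 9.17 normalized counts in sham libraries, which rest on 12 and 9 raw counts, and 169 and 135 in post-PNX libraries. Its log2FC of 3.91 (SE 0.241, QL adjusted p = 3.8e-22) was the largest of the 10 genes, and it began from the lowest level. The post-PNX libraries differed from each other more for Has2 than for Has1, but both stood far above both sham libraries. Has2os, a non-coding RNA that overlaps Has2, had 2 raw counts in each sham library and 25 and 17 after PNX. The kit kept the strand, but whether the counting used it is not stated, so reads of Has2 and Has2os cannot be told apart with certainty.

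Has3, the third synthase, lies on chromosome 8 from 106870242 to 106882902. Its normalized counts were 101 and 127 in sham and 78.6 and 82.5 in post-PNX libraries. The sham libraries differed from each other by more than the nearer of them differed from the post-PNX libraries. The log2FC was -0.49 (SE 0.161, QL adjusted p = 0.00590). It did not pass 0.01 without sham replicate 2 (log2FC -0.32, adjusted p = 0.133), without post-PNX replicate 1 (-0.46, adjusted p = 0.05002), without post-PNX replicate 2 (-0.53, adjusted p = 0.0185) or in DESeq2's Wald test (-0.50, adjusted p = 0.0946), nor with counts summed over transcripts (-0.50, adjusted p = 0.0177) or a scaling to 12 endothelial marker genes (-0.19, adjusted p = 0.282).

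Compared per length, Has1 was the main synthase transcript in every library. The summed FPKM of the 3 synthases was 1.86 and 1.96 in sham and 8.53 and 8.44 in post-PNX libraries. Has1 made up 85.7% and 83.5% of this sum in sham and 91.5% and 92.6% after PNX. The share of Has2 was 1.87% and 1.5005% in sham and 6.38% and 5.13% after PNX, and that of Has3 was 12.4% and 14.96% in sham and 2.13% and 2.25% after PNX. Has2 was thus below Has3 in both sham libraries and above it in both post-PNX libraries. The large fold change of Has2 added far less FPKM than the rise of Has1 did, with mean FPKM values of 0.0321 and 0.489 for Has2 and of 1.61 and 7.81 for Has1 in sham and post-PNX ECs.

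**Figure D2:**
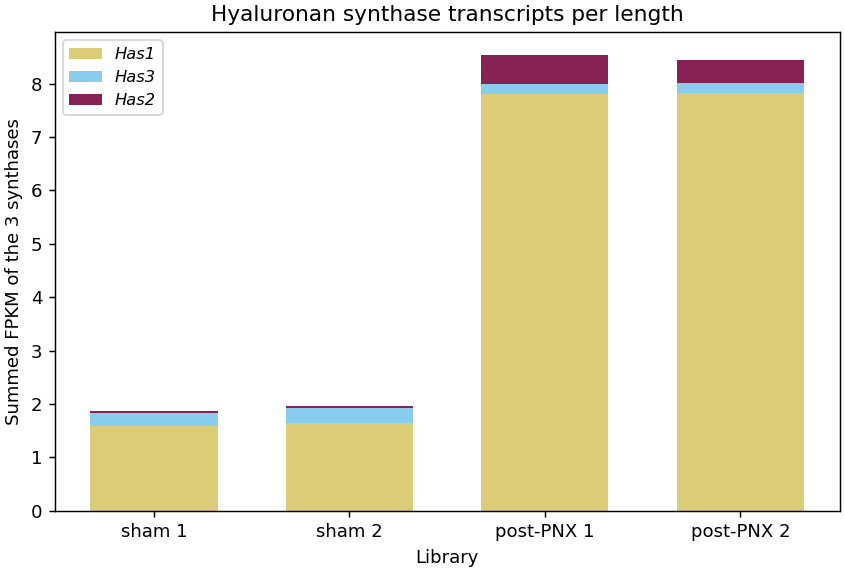
FPKM of Has1, Has3 and Has2 stacked for each of the 4 libraries. The bars reach 1.86 and 1.96 in sham and 8.53 and 8.44 after PNX, and Has1 is the tallest part of each.

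Among the degrading enzymes, Hyal2 is anchored at the cell surface and cuts long chains, and Hyal1 works in lysosomes on the fragments. The genes lie near each other on chromosome 9, Hyal2 from 107567873 to 107572778 and Hyal1 from 107576950 to 107581699. Hyal2 had 8597 and 8684 normalized counts in sham and 7147 and 7231 in post-PNX libraries, a log2FC of -0.27 (SE 0.023, QL adjusted p = 7.4e-16). Hyal1 had 2659 and 2788 in sham and 2330 and 2287 in post-PNX libraries, a log2FC of -0.24 (SE 0.035, QL adjusted p = 1.8e-08). For both genes the falls were under the fold threshold.

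The direction of the hyaluronidases rested on the scaling. Of the 12 endothelial marker genes, 10 fell and 1 rose at a QL adjusted p below 0.01, beside 27.8% and 29.3% of all genes tested. Their median log2FC was -0.34, and their summed normalized count went from between 595286 and 600266 to between 478975 and 479883. When the libraries were scaled to these 12 genes in place of all genes (TMM), the median log2FC of all genes tested moved to 0.30, and Hyal2 and Hyal1 had log2FC values of 0.04 (QL adjusted p = 0.143) and 0.07 (QL adjusted p = 0.0858). The ratio of Hyal2 to Hyal1 FPKM does not depend on such scaling, and it was 3.80 and 3.66 in sham and 3.61 and 3.72 after PNX, ranges that overlap. The FPKM of Hyal1 and Hyal2 together was 42.9 and 41.5 times the summed FPKM of the synthases in sham and 7.91 and 8.02 times after PNX.

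**Figure D3:**
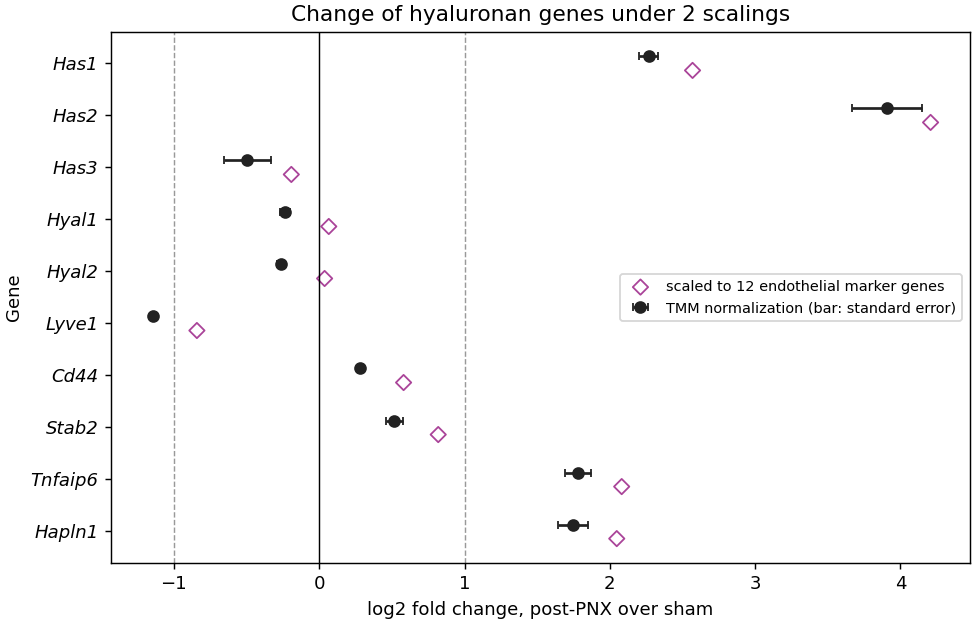
Log2 fold change of each hyaluronan gene, post-PNX over sham, with TMM normalization (filled points, bar: standard error) and with scaling to 12 endothelial marker genes (open diamonds), with dashed lines at -1 and 1. Hyal1 and Hyal2 cross 0 between the scalings (to 0.07 and 0.04), Lyve1 moves inside the dashed line at -0.84, and Has1, Has2, Tnfaip6 and Hapln1 stay beyond 1 with both.

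Lyve1 encodes a hyaluronan receptor of lymphatic endothelium that some tissue macrophages also carry, and it lies on chromosome 7 from 110850607 to 110862953. It had 44903 and 44521 normalized counts in sham and 20125 and 20334 in post-PNX libraries. Both post-PNX libraries lay far below both sham libraries, and the libraries of a group differed little. The log2FC was -1.14 (SE 0.018, QL adjusted p = 2.9e-53), and with the scaling to the endothelial markers it was -0.84 (QL adjusted p = 3.8e-20), under the fold threshold. The FPKM of Lyve1 was 9.06 and 9.03 times that of Cd44 in sham and 3.37 and 3.38 times after PNX.

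None of the 5 other markers of lymphatic endothelium that were tested fell at a QL adjusted p below 0.01. The transcription factor gene Prox1 had a log2FC of 0.43 (QL adjusted p = 1.6e-09) and Pdpn, which encodes podoplanin, one of 0.39 (QL adjusted p = 6.3e-17). Flt4, which encodes the VEGF-C receptor, had -0.02 (QL adjusted p = 0.342), Mmrn1 0.02 (QL adjusted p = 0.470) and Reln -0.04 (QL adjusted p = 0.316), and with the scaling to the endothelial markers Flt4 and Reln were at 0.28 and 0.26. The chemokine gene Ccl21a had at most 1 count in a library. The summed normalized count of the lymphatic markers lay between 25310 and 25445 in sham and between 26010 and 26616 after PNX. The part of other cells of the fraction in the level of these markers, Pdpn among them, was not tested. Of the 8 macrophage markers tested, 7 rose and 1 fell at a QL adjusted p below 0.01, beside 29.3% and 27.8% of all genes tested. The sum of the macrophage markers went from between 25613 and 25962 to between 51699 and 51814. The part of these cells, and of blood vessel ECs, in the level of Lyve1 was not tested.

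Cd44, the broadly expressed hyaluronan receptor, lies on chromosome 2 from 102811141 to 102901669. It had 10743 and 10685 normalized counts in sham and 12958 and 13027 in post-PNX libraries. The log2FC was 0.28 (SE 0.021, QL adjusted p = 1.7e-18), a rise of 1.21-fold. Pan-leukocyte genes, which mark cells rich in CD44, had a median log2FC of 0.16. At a QL adjusted p below 0.01, 3 of 5 were higher and 1, Coro1a, was lower, beside 29.3% and 27.8% of all genes tested. Coro1a was at 0.17 with the scaling to the endothelial markers. The sum of the pan-leukocyte genes went from between 37641 and 37659 to between 39737 and 40219. Their part in the rise of Cd44 was not tested. The genes of ezrin, radixin and moesin, which tie the CD44 tail to actin, all passed a QL adjusted p of 0.01 at small folds, with log2FC values of 0.26 for Ezr, -0.12 for Rdx and 0.05 for Msn. With the scaling to the endothelial markers these were 0.56, 0.18 and 0.35, and Rdx turned direction.

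Cd44 was the 1 gene of the 10 with several transcripts in the tables, and these are nested. The longest of the 6 (NM_009851, 5653 bases) holds 10 variant exons, numbered 6 to 15, that the shortest (NM_001039151, 4408 bases) lacks, and the 1245 bases between their lengths are the summed length of these exons in GENCODE M21. The variant exons encode the stem of the receptor outside the cell, and the form without any of them is called standard CD44. Because reads were counted for each transcript they overlapped, the difference between the transcripts' counts is the number of reads found on variant exons alone. The junctions that set the forms apart are shown here, 30 bases to each side, with the exon before the junction in lower case and the exon after it in capitals (GENCODE M21, mm10, minus strand, exon 5 at chr2:102853015-102853236, exon 6 at chr2:102848657-102848782, exon 15 at chr2:102831330-102831536 and exon 16 at chr2:102828542-102828610).
Standard form, exon 5 to exon 16: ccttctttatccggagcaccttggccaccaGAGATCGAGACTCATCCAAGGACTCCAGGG
Longest form, exon 5 to exon 6: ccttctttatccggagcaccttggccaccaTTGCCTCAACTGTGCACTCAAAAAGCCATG
Longest form, exon 15 to exon 16: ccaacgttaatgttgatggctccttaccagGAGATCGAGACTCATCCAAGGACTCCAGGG

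Most Cd44 reads fell on exons of the standard form in every library. In the sham libraries 165 of 11859 and 167 of 10482 counts were found on variant exons alone, shares of 1.39% (95% Wilson interval 1.20% to 1.62%) and 1.59% (1.37% to 1.85%). In the post-PNX libraries these were 151 of 13187 and 131 of 11692 counts, shares of 1.15% (0.977% to 1.34%) and 1.12% (0.945% to 1.33%). Both post-PNX shares were below both sham shares. The intervals, which cover counting error only, overlapped those of sham library 1 but lay below that of sham library 2, and no test between groups was made. Per kilobase, the variant exons held between 4.01% and 5.73% of the counts of the standard exons. A read pair that also touched a standard exon may have been counted for both transcripts, so that these shares can understate the variant forms.

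The variant counts were not spread evenly. Exons 14 and 15, next to the standard exons at the 3' end, had 226 and 236 raw counts per kilobase in sham and 205 and 175 in post-PNX libraries, while exons 6 to 8 had 78.6 and 67.8 in sham and 67.8 and 62.3 after PNX. In all 4 libraries exons 14 and 15 held more counts per kilobase than exons 6 to 8. These values are differences between the counts of successive nested transcripts. A read touching neighbouring sets thus counted for the set nearer the 3' end, which can raise exons 14 and 15 against exons 6 to 8. The part of this in the difference was not tested.

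**Figure D4:**
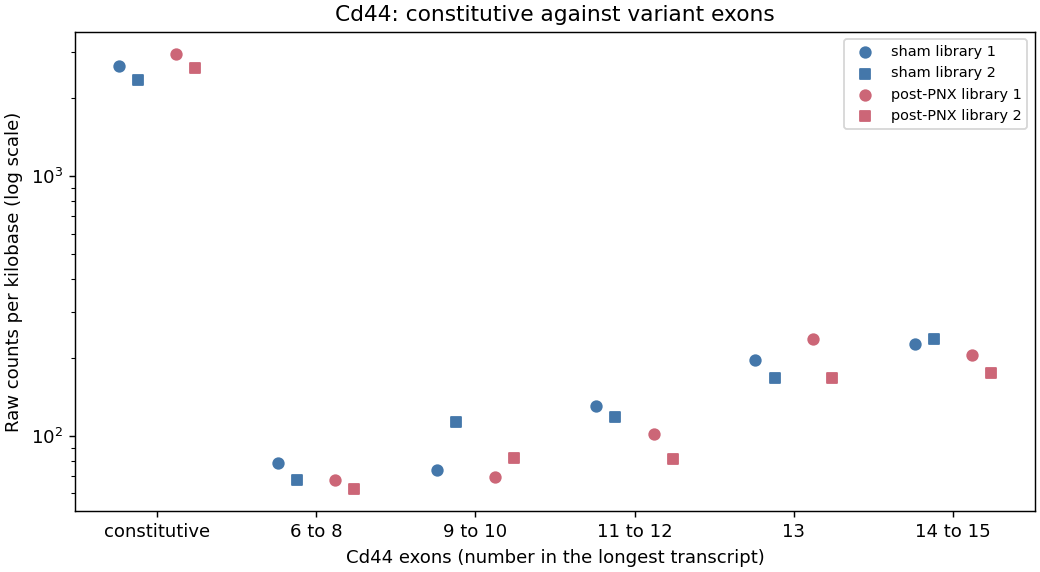
Raw counts per kilobase (log axis) on the standard exons of Cd44 and on 5 sets of variant exons, 1 point per library. Counts of a variant set are the difference between successive nested transcripts. The standard exons lie between 2340 and 2957, while exons 6 to 8 lie between 62.3 and 78.6 and exons 14 to 15 between 175 and 236.

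Stab2, on chromosome 10 from 86841194 to 87008038, encodes a scavenger receptor that clears hyaluronan from blood and lymph in sinusoidal endothelium. It had 592 and 610 normalized counts in sham and 899 and 816 in post-PNX libraries, a log2FC of 0.52 (SE 0.060, QL adjusted p = 3.3e-11). Both post-PNX libraries were above both sham libraries, by 1.43-fold in the fit. Its relative Stab1, which binds hyaluronan weakly if at all, was far more abundant per length, with a mean FPKM of 28.3 in sham against 1.00 for Stab2, and had a log2FC of 0.17 (QL adjusted p = 5.4e-11). Of 3 other genes of sinusoidal endothelium, Oit3 had a log2FC of 1.00 (QL adjusted p = 3.9e-04), Clec4g -0.26 (QL adjusted p = 0.120) and Dnase1l3 -0.07 (QL adjusted p = 0.767), all low, with at most 127 raw counts in a library. Clec4g and Dnase1l3 were above 0 (0.04 and 0.24) with the scaling to the endothelial markers.

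Tnfaip6 encodes TSG-6, an inflammation-induced protein that moves the heavy chains of inter-alpha-inhibitor onto hyaluronan, and it lies on chromosome 2 from 52038113 to 52056681. It had 166 and 158 normalized counts in sham and 548 and 566 in post-PNX libraries. The groups were well separated, with a log2FC of 1.78 (SE 0.089, QL adjusted p = 1.9e-26). Hapln1 encodes the link protein that locks hyaluronan to proteoglycans such as versican, and it lies on chromosome 13 from 89540529 to 89611832. It had 134 and 114 normalized counts in sham and 416 and 421 in post-PNX libraries, a log2FC of 1.75 (SE 0.103, QL adjusted p = 4.1e-23). Both genes rose by similar factors, 3.43-fold and 3.35-fold.

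Promoters from RefSeq (GRCm38.p6) were matched for 7 of the 10 genes, without Has2, Has3 and Lyve1. Since the study concerns YAP1, which acts through TEAD factors, the 250 bases before each listed start site were searched on both strands for motifs. The motifs were of 3 kinds, which do not overlap each other here. The windows of Hyal2 (chr9:107568913-107569162) and Has1 (chr17:17855189-17855438) lay inside the loci given above, so they precede internal start sites. Those of Hapln1, Stab2 and Cd44 overlapped their loci in part. The TEAD motif GGAATG was found in 12.6% of 32851 promoters. The AP-1 motif TGANTCA was found in 6.75% of them, and the TATA box, searched as TATAAA, in 12.4%. Tnfaip6 held the AP-1 letters at -142 and the TEAD letters on the reverse strand at -8, Hyal2 held the TEAD letters at -229, and the windows of Has1, Hapln1, Cd44, Hyal1 and Stab2 held none of them. The Tnfaip6 window is shown because it held matches in a gene that rose. It is chr2:52037863-52038112 (GRCm38.p6, plus strand), with the matches in capitals, and a match is a description of the letters and not of binding.
Tnfaip6 promoter: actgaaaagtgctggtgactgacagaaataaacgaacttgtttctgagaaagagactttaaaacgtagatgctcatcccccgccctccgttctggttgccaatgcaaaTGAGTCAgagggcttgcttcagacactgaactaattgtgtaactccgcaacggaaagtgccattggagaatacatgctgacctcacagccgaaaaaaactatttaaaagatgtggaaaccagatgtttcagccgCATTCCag

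In FPKM, the order of the 10 genes in sham ECs was Lyve1 (233), Hyal2 (63.5), Cd44 (25.7), Hyal1 (17.0), Has1 (1.61), Tnfaip6 (1.37), Stab2 (1.00), Hapln1 (0.334), Has3 (0.262) and Has2 (0.0321). After PNX the order was the same but for Has2 (0.489), which had passed Has3 (0.186). In neither group did neighbours in this order overlap between libraries. The FPKM of Cd44 used the length of its longest transcript and is thereby somewhat low.

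Markers of several cell types moved along with the genes that rose. Of all genes tested, 5.90% were higher past both thresholds. Of 9 fibroblast markers, 5 were, and their summed normalized count went from between 66444 and 67127 to between 231550 and 233206. This sum was carried mostly by collagen genes, but Lum and Dcn also rose past both thresholds, with log2FC values of 4.26 and 2.30. Dpt and Pi16 had 0.71 and 0.63, while Pdgfra and Tcf21, which mark lung fibroblasts, had -0.23 and 0.02. Pdgfra was at 0.07 with the scaling to the endothelial markers. Of 6 mesothelial markers, 4 were higher past both thresholds, with sums between 9707 and 9728 in sham and between 22012 and 22122 after PNX, and Wt1 had a log2FC of 2.68. Of 7 smooth muscle and pericyte markers, 1 was higher past both thresholds, with a median log2FC of 0.37 and sums between 22647 and 22925 and between 29823 and 29928. All 7 lung epithelial markers fell at a QL adjusted p below 0.01, where 27.8% of all genes tested did, with a median log2FC of -0.62. Cdh1 alone of them was above 0 with the scaling to the endothelial markers. Muc16, also listed for mesothelium, was not among the gene symbols. No defining marker of these lists that was counted was at 0. Fibroblasts, mesothelium and smooth muscle are known to make hyaluronan, and their part in the rise of Has1, Has2, Tnfaip6 and Hapln1 was not tested.

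The other genes of the pathway were taken from lists by role, 47 genes in the tables of which 36 passed the filter on low counts. Of these, 5 were higher and 1 lower past both thresholds, and 20 were higher and 6 lower at a QL adjusted p below 0.01 whatever the fold (against 7.56% and 57.1% of all genes tested). Their median log2FC was 0.15. The 11 genes left out had between 0 and 8 raw counts in each library, among them the aggrecan gene Acan, the neurocan gene Ncan and the sperm hyaluronidase gene Spam1.

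Hyaluronan is built from UDP-glucuronic acid and UDP-N-acetylglucosamine, and 8 of 10 genes that supply these sugars rose at a QL adjusted p below 0.01, where 29.3% of all genes tested did, with a median log2FC of 0.23. Gfpt2, one of 2 genes for the enzyme that starts the hexosamine pathway, had 457 and 460 normalized counts in sham and 2033 and 2037 in post-PNX libraries, a log2FC of 2.15 (SE 0.051, QL adjusted p = 2.2e-43). Its paralog Gfpt1 had a log2FC of -0.15 (QL adjusted p = 1.7e-05), which was 0.15 with the scaling to the endothelial markers. In FPKM Gfpt1 led in sham (7.32 against 2.08) and Gfpt2 after PNX (9.31 against 6.62). Ugdh, which makes UDP-glucuronic acid, had a log2FC of 0.50 (QL adjusted p = 5.7e-20), and Gpi1, a glycolytic enzyme and the most abundant of this list in FPKM (47.5 in sham), had 0.27.

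Of 5 further genes of hyaluronan cleavage and breakdown that were tested, 4 rose at a QL adjusted p below 0.01, beside the same 29.3% of all genes tested, with a median log2FC of 0.51. Cemip, whose protein binds hyaluronan and promotes its cleavage, had 32.6 and 28.5 normalized counts in sham and 261 and 260 in post-PNX libraries, a log2FC of 3.08 (SE 0.159, QL adjusted p = 8.1e-26). Tmem2, its membrane-bound relative, was far more abundant, with a mean FPKM of 42.0 in sham against 0.0584 for Cemip, and had a log2FC of 0.19 (QL adjusted p = 1.4e-13). Of lysosomal enzymes that work late in the breakdown, Gusb (β-glucuronidase) rose with a log2FC of 0.81 (1.11 with the scaling to the endothelial markers) and Hexa with 0.51. Hyal3, which overlaps the Hyal1 locus, had 0.04 (QL adjusted p = 0.824). These lysosomal enzymes also degrade other sugars and are abundant in macrophages, whose markers rose as given above, and the part of macrophages in these values was not tested.

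Of 7 other receptors, 3 rose and 1 fell at a QL adjusted p below 0.01, with a median log2FC of 0.09. This share was near the 57.1% of all genes tested and says nothing particular about the receptors. Hmmr, which encodes the hyaluronan-mediated motility receptor RHAMM, a protein that also binds the mitotic spindle, had 157 and 155 normalized counts in sham and 1724 and 1740 in post-PNX libraries, a log2FC of 3.47 (SE 0.067, QL adjusted p = 3.5e-48). Beside it, all 7 proliferation markers were higher past both thresholds, where 5.90% of all genes tested were. Their median log2FC was 3.08, with summed normalized counts between 3032 and 3053 in sham and between 24884 and 25208 after PNX. The part of dividing cells in the level of Hmmr was not tested. Tlr2, a receptor proposed to sense hyaluronan fragments and the most abundant gene of this list in FPKM (30.1 in sham), had a log2FC of 0.09, and Tlr4 had -0.05 (QL adjusted p = 0.216). Tlr4 was at 0.25 with the scaling to the endothelial markers.

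Of the 11 other binding proteins tested, 3 were higher and 3 lower at a QL adjusted p below 0.01, with a median log2FC of -0.12. These counts too were near the shares of all genes tested, 29.3% higher and 27.8% lower. Vcan, which encodes versican, the large proteoglycan that Hapln1 holds on hyaluronan, had 353 and 321 normalized counts in sham and 2240 and 2256 in post-PNX libraries, a log2FC of 2.73 (SE 0.054, QL adjusted p = 1.0e-47). Ptx3, a pentraxin that crosslinks hyaluronan through TSG-6 and inter-alpha-inhibitor, had 290 and 266 in sham and 1238 and 1277 after PNX, a log2FC of 2.17 (SE 0.065, QL adjusted p = 4.1e-38). The genes of the inter-alpha-inhibitor heavy chain family moved in both directions. Itih1 had a log2FC of -1.10 from 59.5 normalized counts in sham (QL adjusted p = 5.6e-05), Itih2 -0.69 (QL adjusted p = 0.00882), Itih3 -0.23 (QL adjusted p = 0.174) and Itih4 -0.61 (QL adjusted p = 4.3e-18), while Itih5 had 0.84 (QL adjusted p = 1.0e-21). With the scaling to the endothelial markers Itih1, Itih2 and Itih4 were at -0.80, -0.38 and -0.31, Itih3 was at 0.07, and Itih5 passed the fold threshold at 1.15. Habp4, the most abundant gene of this list in FPKM in sham (7.54), had -0.12 (QL adjusted p = 0.0124), which was 0.18 with that scaling.

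**Figure D5:**
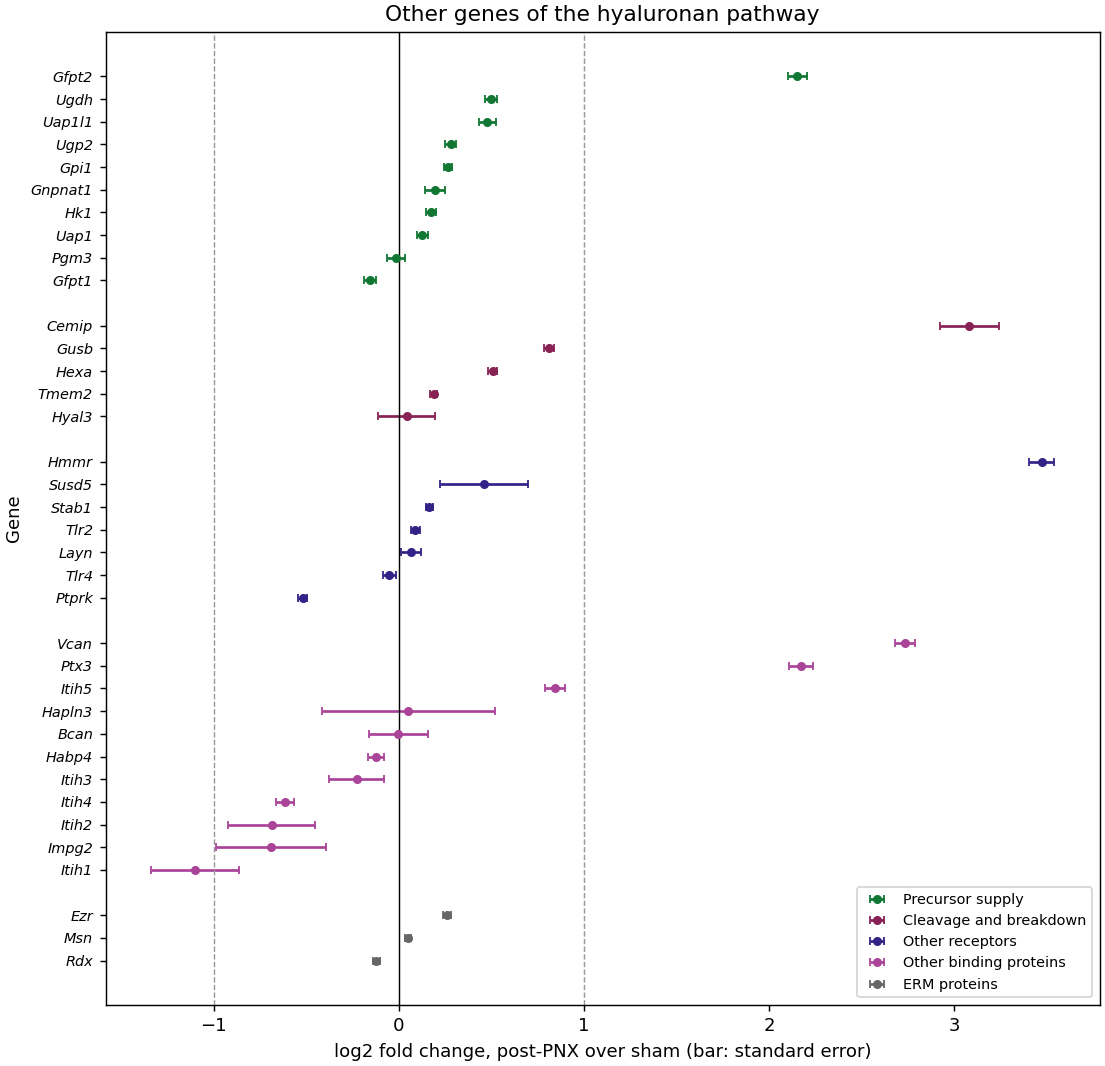
Log2 fold change, post-PNX over sham, of 36 other pathway genes tested, with standard errors, grouped by role and ordered within each group, with dashed lines at -1 and 1. Hmmr (3.47), Cemip (3.08), Vcan (2.73), Ptx3 (2.17) and Gfpt2 (2.15) lie above 1 and Itih1 (-1.10) below -1.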

How the data were processed

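RNA of CD31-selected lung ECs was sequenced as paired ends after a stranded mRNA kit and aligned to mm10 (STAR per the submitters' processing notes; the counting program is not given in the sources used here). For each library the authors deposited the raw count of each of 33068 RefSeq transcripts, an FPKM value and a TPM value. Reads shared by transcripts of 1 symbol entered the count of every such transcript, so each symbol was represented by the transcript with the most counts.

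Counts were analysed with edgeR 4.0.16 in R 4.3.3 (filterByExpr, TMM, quasi-likelihood F test, Benjamini-Hochberg adjustment over 16208 genes), and DESeq2 1.42.0 served as an alternative. Calls required an absolute log2FC above 1 with an adjusted p below 0.01, as in the study's methods. Normalized counts are scaled to the mean library. FPKM gave levels between genes. TPM differs from FPKM by a constant factor within a library, so its synthase shares are the same by construction. The steps were tested on simulated data. The mean chi-square per gene between replicates was 1.76 in sham and 1.53 after PNX, where pure counting noise gives 1. No library was thus an exact copy of another, but values so near 1 cannot tell separate pools from repeat runs of 1 pool. The genes and lists were chosen with earlier results of these data known. Named genes were the 10 genes, pathway genes past both thresholds or highest in FPKM, and up to 3 markers of a list by counts. Other names were chosen after their values were seen. 1 gene of the pathway lists is not reported here and was left out of their counts.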

Additional observations from a re-analysis of the deposited data

How the results depend on the processing

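Other normalizations were scaling to 12 endothelial marker genes, to library size alone and by DESeq2's size factors. Other choices were no filter, a mean of at least 50 counts, DESeq2's Wald test, glmTreat, summed transcripts, an adjusted p under 0.05, the replicate block and each library left out. The number of hyaluronan genes past both thresholds stayed at 5 except with the endothelial scaling, where it was 4. That scaling moved Lyve1 to -0.84, under the fold threshold, and turned Hyal1 to 0.0660 and Hyal2 to 0.0373. Over all genes it gave 1414 higher and 71 lower genes (95.2% higher) in place of 957 and 269 (78.1%), and glmTreat gave 604 and 39. With a mean of at least 50 counts 160 genes were lower. Leaving out each library gave log2 fold changes from 3.73 to 4.05 for Has2 and from -0.66 to -0.32 for Has3. The replicate numbers do not pair mice, since the sham and post-PNX libraries came from different mice. The correlation of deviations between libraries of the same number was 0.032. With 2 libraries per group near counting noise, it cannot show whether they shared a batch. The replicate block left 5 hyaluronan genes past both thresholds and 957 higher and 272 lower genes in all. Sequencing depth limits Has2 in sham, at 12 and 9 counts, and the variant exons of Cd44. With 2 libraries per group no exact permutation or rank test of a single gene could pass 0.05. The p-values given here rest on edgeR's model of the counts over all genes.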
